A study of Sus scrofa with 20 samples.

Results

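The urea cycle turns ammonia into urea and is the property of mature hepatocytes, above all those around the portal vein. Inside the mitochondrion, NAGS makes the activator of CPS1, CPS1 joins ammonia to bicarbonate, and OTC makes citrulline. In the cytosol, ASS1 and ASL build and split argininosuccinate, and ARG1 releases urea. SLC25A13 (citrin) carries aspartate and SLC25A15 carries ornithine across the mitochondrial membrane. Glutamine is the other sink of ammonia: the liver-type glutaminase GLS2 opens it near the portal vein, and glutamine synthetase (GLUL) makes it in the hepatocytes around the central vein and also in many other tissues.

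The genes were chosen by name, 10 in all, as rows of a table of 25764 pig genes. A row was found for 8 of them, and all 8 passed the filter on low values that 15576 rows passed. ASL and SLC25A15 had no row by that name. The normalized counts are not corrected for gene length, so a gene is compared between libraries here and never with another gene's level.

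RNA came from cells labelled pBTSCs (porcine biliary tree stem cells) and from sorted liver cells of neonatal piglets, with 20 libraries in all. The labels give the gallbladder as the source of the pBTSCs, and the study's text names the cystic and common ducts as well. Of the 5 pBTSC libraries, S2, S7 and S11 came from H2B-GFP piglets, in which a nuclear histone H2B-eGFP fusion inserted at the ACTB locus is made in all tissues, and S15 and S20 from wild-type piglets. These piglets were 1 day old, apart from the donor of S11 at 2 days. The 15 liver libraries were sorted as CD45-/EpCAM+ (4), CD45-/EpCAM- (2), CD45+ (5), CD31+ (2) and CD146+ (2). CD45 marks blood cells, EpCAM epithelial cells, CD31 endothelium, and CD146 endothelial and mural cells. The study defines BTSCs as CD45-/EpCAM+ cells of the biliary tree. Its methods describe selected stem/progenitors held for hours in serum-free Kubota's Medium, where they formed organoids with early mesenchymal cells. Adult hepatocytes were not cultured. Which libraries here passed through this culture is not given per library, and its part in the differences was not tested. No other treatment is named for any group. The genotype, the age and the donor of each liver library are not given in the sources used here. P-values therefore measure the spread between these libraries, some of which may share a piglet. Libraries are named by the numbers in their titles.

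Hepatocyte RNA was in all liver sorts, and of the sorting antigens' genes PTPRC, PECAM1 and MCAM overlapped between sorts. ALB, the plasma albumin of hepatocytes, stood between 513084 and 1789960 normalized counts in all 15 liver libraries, CD45+, CD31+ and CD146+ included. PTPRC, which encodes CD45, ranged from 424 to 2687 in the CD45+ libraries and from 450 to 3027 in CD45-/EpCAM+. PECAM1, which encodes CD31, was at 20102 and 25291 in the CD31+ libraries and at 19884 to 28778 across S16 to S23, whatever the sort. MCAM, which encodes CD146, was at 4615 and 5226 in the CD146+ libraries. It reached 4751 in the CD31+ libraries and 4615 in CD45-/EpCAM+. EPCAM did not overlap between the sorts it defines, at 491 and 1090 in the CD45-/EpCAM- libraries and from 1205 to 1779 in CD45-/EpCAM+, although CD45+ libraries reached 2232. The pBTSC libraries held 287 to 25087 of ALB and 884 to 2075 of EPCAM. Their summed smooth muscle and fibroblast markers (8 of 9 listed had a row) ranged from 392733 to 1430140, against 41162 to 171710 in the liver libraries. Depth was estimated at 21190700 to 77833700 reads in 17 libraries and at 801429 in S13, 1566990 in S15 and 454556 in S22.

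Nearly every member with a row was lower in pBTSCs than in liver cells, from 6.14-fold for the carrier SLC25A13 to 494-fold for CPS1 against CD45-/EpCAM+ cells, whereas GLUL did not pass. Against CD45-/EpCAM+ liver cells, 7 of the 8 members passed the test (limma with Benjamini-Hochberg adjustment over all genes, adjusted p-value under 0.05 and absolute log2 fold change above 1), all lower in pBTSCs. Of all 15576 genes, 25.1% passed in either direction and 10.3% were lower. For the same 7 members each pBTSC library lay below each CD45-/EpCAM+ library, as it did for 14.1% of all genes. The median log2 fold change of the members was -6.12 and that of all genes 0.08. These values come from whole preparations, in which fewer cells of a type and less RNA per cell cannot be told apart.

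**Figure D1:**
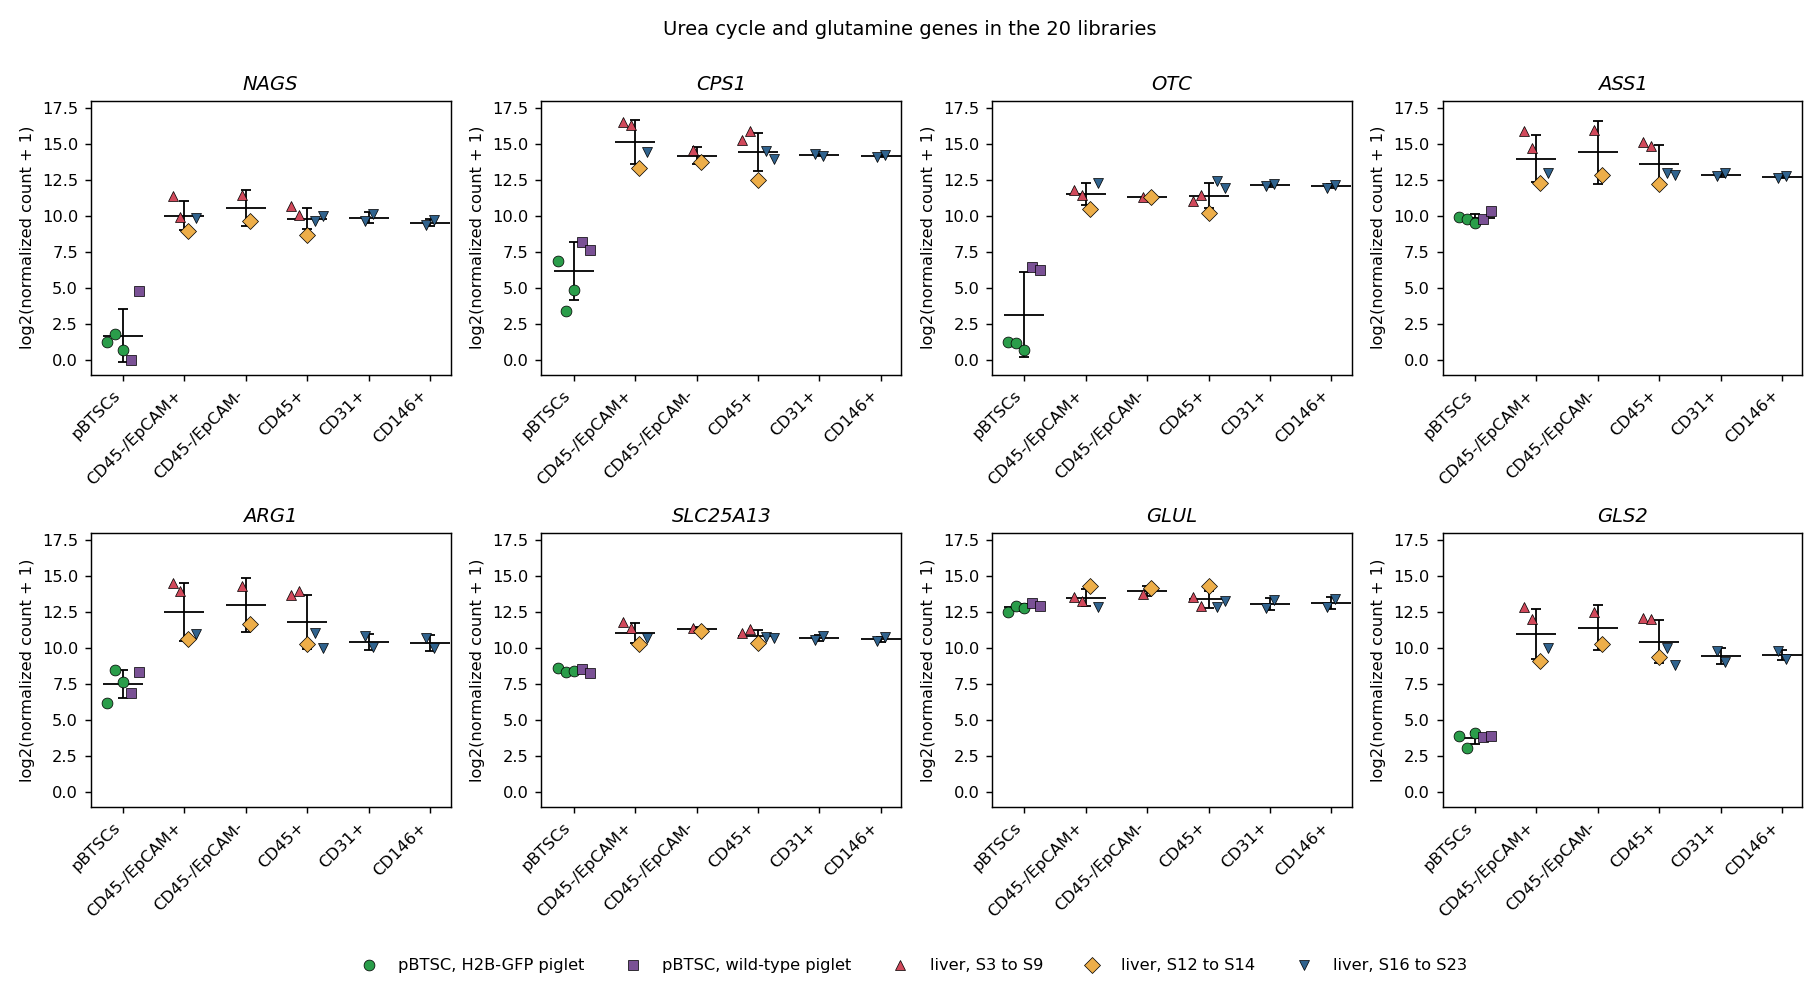
Each point is 1 library, placed by its sort on the horizontal axis and by log2(normalized count + 1) on the vertical axis; lines and bars give the mean and SD of each sort. The GLUL points lie close together across sorts, while the pBTSC points of NAGS, CPS1, OTC and GLS2 lie far under the liver points; pBTSC means are 1.72 for NAGS and 12.85 for GLUL.

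CPS1, OTC and NAGS, which act in the mitochondrial part of the urea cycle, had the largest estimates, although no test compared members with each other. CPS1, the rate-limiting enzyme of the cycle, was at 119, 9.60 and 28.8 normalized counts in the H2B-GFP libraries S2, S7 and S11 and at 290 and 197 in the wild-type libraries S15 and S20. In CD45-/EpCAM+ liver cells it was at 93371 in S4, 80606 in S9, 10230 in S13 and 22892 in S19. The lowest liver library thus stood far above the highest pBTSC library, and the liver libraries themselves spread over 9.13-fold. The log2 fold change was -8.95 (SE 0.89, adjusted p = 7.14e-07 by limma).

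OTC gave 1.36, 1.29 and 0.636 normalized counts in S2, S7 and S11, against 87.9 and 75.7 in S15 and S20. In S2, S7 and S11 these values amount to about 6, 5 and 1 reads, and in the shallow S15 to about 7. The 4 CD45-/EpCAM+ libraries held 3632, 2867, 1465 and 5044 in S4, S9, S13 and S19. Both wild-type libraries were above the H2B-GFP ones and all 5 were below the liver. The log2 fold change was -8.36 (SE 1.01, adjusted p = 5.90e-06 by limma).

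NAGS was at 1.36, 2.58 and 0.636 in the H2B-GFP libraries, at 0 in S15 and at 26.8 in S20. S15 is too shallow to show such levels, since 3 of its reads are worth 37.7 normalized counts, and S11 lay under its own floor of 1.91. The CD45-/EpCAM+ libraries held 2697, 975, 488 and 919 in S4, S9, S13 and S19. The log2 fold change of NAGS was -8.31 (SE 0.75, adjusted p = 2.38e-07 by limma), near those of CPS1 and OTC.

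The estimates were smaller for the cytosolic enzymes ASS1 and ARG1 and for the mitochondrial carrier SLC25A13. ASS1, which also serves arginine synthesis outside the liver, was at 745 to 1296 in the 5 pBTSC libraries, with the lowest in S11 and the highest in S20. It ranged from 5080 in S13 to 60798 in S4 in CD45-/EpCAM+ cells, a log2 fold change of -4.09 (SE 0.73, adjusted p = 0.000278 by limma). ARG1 was at 71.2, 354 and 203 in S2, S7 and S11 and at 118 and 323 in S15 and S20, with no order by piglet line. Against 23211, 16312, 1593 and 2009 in S4, S9, S13 and S19, the log2 fold change of ARG1 was -5.02 (SE 0.95, adjusted p = 0.000481 by limma). SLC25A13 was the most even member in pBTSCs, from 315 in S20 to 401 in S2. Its liver levels of 1258 to 3609 gave a log2 fold change of -2.62 (SE 0.25, adjusted p = 4.33e-07 by limma).

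Of the glutamine genes, GLS2 passed and GLUL did not. GLS2 was low in pBTSCs, from 7.36 in S7 to 16.6 in S11. Its value of 13.6 in the shallow S15 is about 1 read and lay under the floor of 37.7. In CD45-/EpCAM+ cells GLS2 ranged from 557 in S13 to 7442 in S4, a log2 fold change of -7.23 (SE 0.76, adjusted p = 1.28e-06 by limma). GLUL was at 5869, 7682 and 6931 in S2, S7 and S11 and at 9035 and 7644 in S15 and S20. In CD45-/EpCAM+ liver cells it was at 12324, 9832, 20270 and 7573 in S4, S9, S13 and S19, so that the groups overlapped. The log2 fold change of GLUL was -0.67 (95% confidence interval -1.30 to -0.03) and did not pass (adjusted p = 0.0902 by limma).

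On the libraries alone, an exact two-sided permutation test against CD45-/EpCAM+ (5 against 4) gave the smallest p it allows, 0.0159, for all members but GLUL, which had p = 0.0635. Against CD45+ (5 against 5) this exact test gave its smallest p, 0.00794, for the same 7 members and p = 0.0714 for GLUL. Without S13, S15 and S22 the comparison with CD45-/EpCAM+ cannot go below p = 0.0571 in this exact test.

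**Figure D2:**
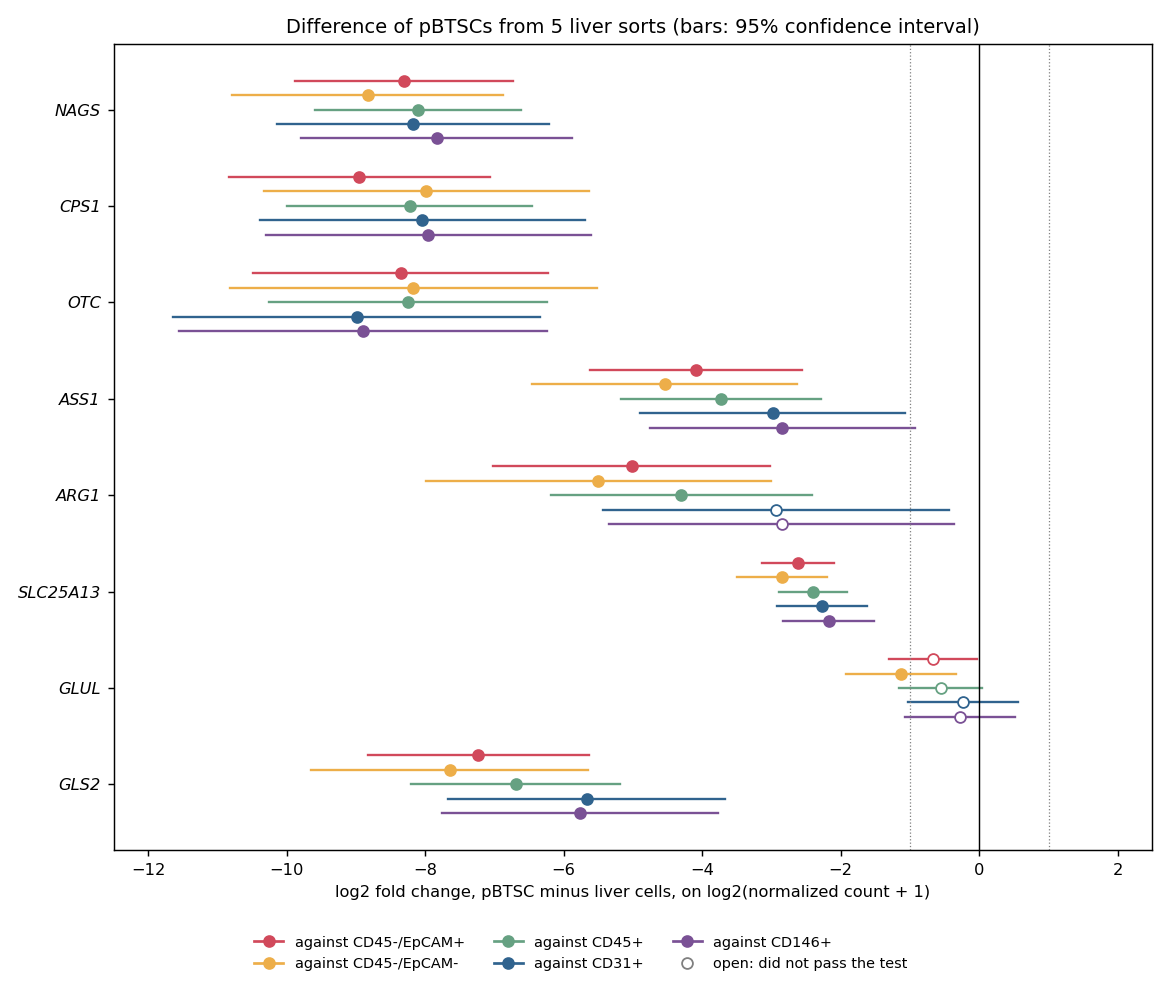
The horizontal axis is the log2 fold change of pBTSCs minus each liver sort on log2(normalized count + 1); points are limma estimates, bars 95% confidence intervals, filled points passed the test and dotted lines mark the fold threshold of 1. The intervals of NAGS, CPS1, OTC and GLS2 end below -3 in all 5 comparisons, and those of GLUL reach from -1.92 to 0.55.

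Most members were also lower against the other liver sorts, with estimates in another order. All of these comparisons use the same 5 pBTSC libraries, so they are not independent of each other. Against CD45-/EpCAM- liver cells all 8 members were lower (36.6% of all genes passed, 16.6% as lower), and this was the only sort against which GLUL passed, at a log2 fold change of -1.13 (SE 0.38, adjusted p = 0.0194 by limma). GLUL no longer passed there when libraries were rescaled to the same total, at -0.65 (adjusted p = 0.199). With a term for the run of neighbouring title numbers it stood at -0.88 (adjusted p = 0.0330), under the fold threshold. Leaving out S5 ended the calls of ARG1 (-4.18, adjusted p = 0.0535), ASS1 (-3.00, adjusted p = 0.0501) and GLUL (-1.36, adjusted p = 0.0559), with estimates that stayed beyond the fold threshold and, for GLUL, a larger one. Without S14 GLUL also failed, at -0.90 (adjusted p = 0.151). The summed erythroid markers (6 of 7 listed had a row) were at 883815 in S5 and 193940 in S14, against 29315 to 128859 in pBTSCs, and their part in these differences was not tested.

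Against CD45+ liver cells 7 members were lower, where 20.6% of all genes passed and 9.54% were lower. CPS1 was at a log2 fold change of -8.23 and GLUL at -0.55 (95% confidence interval -1.15 to 0.04). Against CD31+ cells 6 members were lower (14.4% of all genes passed, 7.62% as lower), and against CD146+ cells 6 (22.2% and 7.75%). ARG1 did not pass in either, at -2.93 (adjusted p = 0.104 by limma) and -2.85 (adjusted p = 0.0824), although each pBTSC library lay below each CD31+ and each CD146+ library, as it did for 20.6% and 16.8% of all genes. Fitted with the compared groups alone, ARG1 passed at an adjusted p of 0.0107 against CD31+ and 0.0148 against CD146+. ASS1 passed at -2.98 and -2.85 but lost its call when either library of these pairs was left out, with adjusted p between 0.0776 and 0.233, and against CD31+ also without S11 (adjusted p = 0.0543). GLUL differed by -0.24 from CD31+ and -0.28 from CD146+, and these values moved to 0.05 and 0.00 when libraries were rescaled to the same total.

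Within the pBTSC group, CPS1 and OTC were higher in both wild-type libraries than in the 3 H2B-GFP ones, a difference that was not tested with so few libraries. The study's RNA quality list gives S20 a higher RNA integrity number than S2, S7 and S11 and gives none for S15. The part of RNA quality in these levels was not tested. ALB was at 376, 287 and 288 in the H2B-GFP libraries S2, S7 and S11 and at 19832 and 25087 in the wild-type libraries S15 and S20, and the mean log2 level of the hepatocyte markers (12 of 14 listed had a row) was 6.61 to 6.81 in the H2B-GFP libraries and 10.46 and 11.19 in the wild-type ones. Per 1000 ALB counts of the same library, OTC stood at 2.21 to 4.50 in pBTSCs and at 1.84 to 5.41 in the liver, but the pBTSC values of S2, S7, S11 and S15 rest on 1 to 7 reads of OTC, and S11 lay under its floor. In S20, with about 158 reads of OTC, the ratio was 3.02. CPS1 per 1000 ALB was at 14.6 and 7.85 in S15 and S20 and at 33.5 to 315 in the H2B-GFP libraries, against 10.1 to 142 in the liver. NAGS per 1000 ALB was at 1.07 in S20, at 0 in the shallow S15 and at 3.62, 9 and 2.21 in S2, S7 and S11, against 0.456 to 4.20 in the liver. ARG1 and GLS2 lay in the liver range in S15 and S20 and above it in S2, S7 and S11, but GLS2 in S15 rests on about 1 read, under its floor. ASS1 lay in the liver range of 4.02 to 97.2 in S15 and S20, at 45 and 51.6, and above it in the others. GLUL and SLC25A13 were above the liver range in all 5, with GLUL at 305 to 26774 against 4.19 to 36.7. The part of hepatocyte RNA in the pBTSC levels of the members was not tested.

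**Figure D3:**
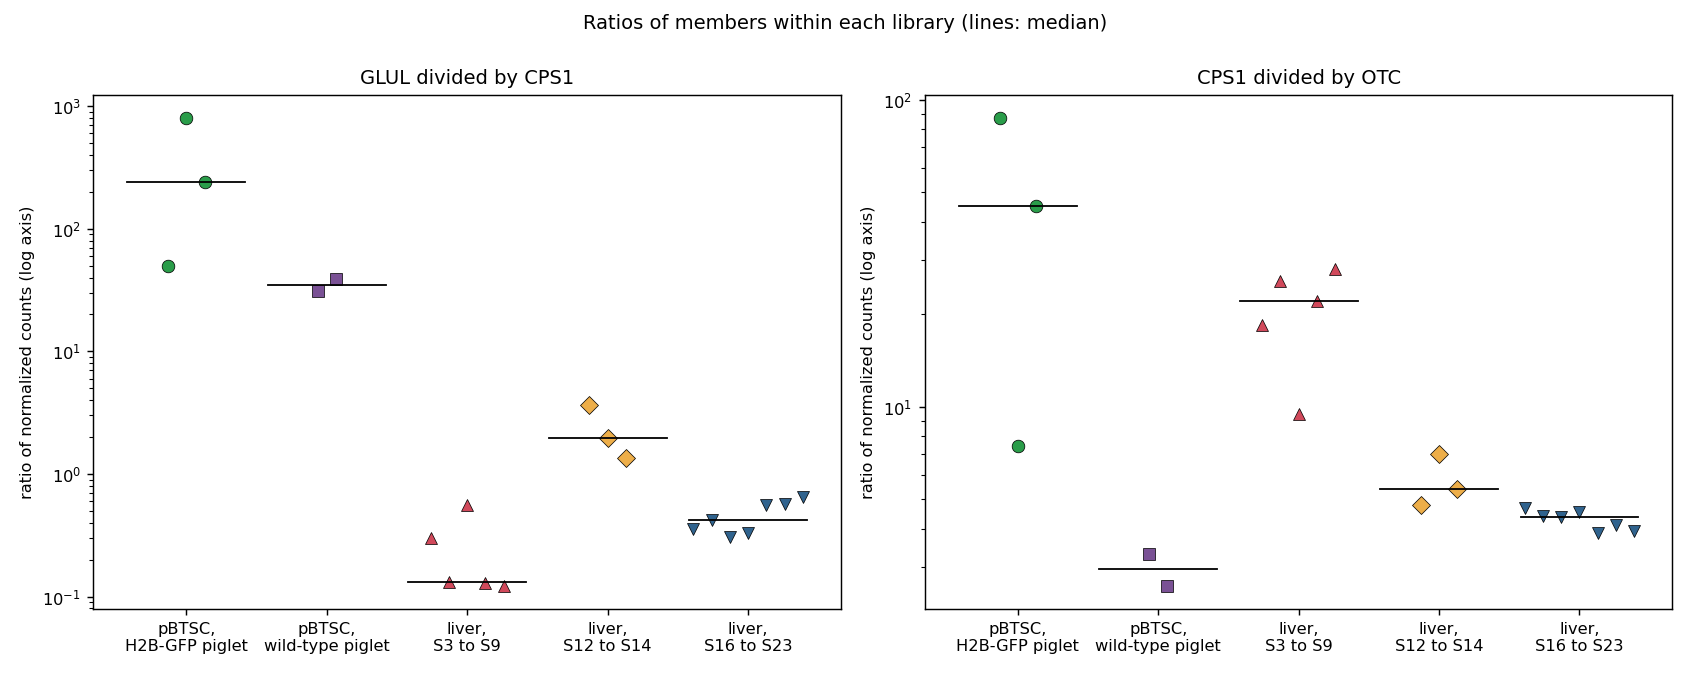
Each point is the ratio of normalized counts of a pair of members within 1 library, on a log axis, with lines at the median of each set. GLUL divided by CPS1 is at 31.1 to 800 in pBTSCs and at 0.122 to 3.63 in the liver, and CPS1 divided by OTC is at 9.49 to 28.1 in S3 to S9 and 3.86 to 4.66 in S16 to S23; ratios carry each gene's own length, so only their change between libraries can be read.

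The ratio of GLUL to CPS1 was taken from the normalized counts of each library. It carries each gene's own length, so only its change between libraries can be read, and it does not measure ammonia use. It was at 49.4, 800 and 241 in S2, S7 and S11, at 31.1 and 38.8 in S15 and S20, and at 0.122 to 3.63 (median 0.418) in the 15 liver libraries. No pBTSC library overlapped with the liver. The highest liver ratios belonged to S12, S13 and S14, at 3.63, 1.98 and 1.34.

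Between liver sorts, no member passed a test. CD45-/EpCAM+ against CD45-/EpCAM- cells gave 0 of 8 members by limma (0 at an unadjusted p under 0.05), where 2.8% of all genes passed, and CD45+ against CD45-/EpCAM+ gave 0 of 8 and 0 of all genes (0%), with 0 members and 214 genes at an unadjusted p under 0.05. In the 4 pairs of a CD45+ and a CD45-/EpCAM+ library next to each other in title number, CPS1 was lower in CD45+ in 3, with log2 differences from -1.23 to 0.06. CPS1 was 0.97 higher in CD45-/EpCAM+ than in CD45-/EpCAM- cells on the log2 scale, with a 95% confidence interval from -1.46 to 3.40. In order of mean log2 level, CPS1 ran from CD45-/EpCAM+ (15.15) over CD45+ (14.43), CD31+ (14.25) and CD45-/EpCAM- (14.19) to CD146+ (14.16), and neighbours in this order differed by less than the larger of their SDs. The same held between neighbouring liver sorts for the other 7 members. From the lowest liver sort down to pBTSCs the gap was larger than the larger SD for every member but GLUL, at 7.96 for CPS1 and 0.24 for GLUL. The mean of OTC was highest in CD31+ (12.17) and lowest in CD45-/EpCAM- (11.35), and that of ARG1 highest in CD45-/EpCAM- (13.01) and lowest in CD146+ (10.37).

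Liver libraries of neighbouring title numbers resembled each other more than those of 1 sort did. The liver numbers fall into 5 runs, S3 to S5, S8 and S9, S12 to S14, S16 to S19 and S21 to S23, each following a pBTSC library. Within a run the pooled SD of GLUL was 0.09 on the log2 scale (10 degrees of freedom), against 0.54 within a sort (10 degrees of freedom). For ARG1 these were 0.38 and 1.74, for ASS1 0.28 and 1.40, for GLS2 0.35 and 1.45, and for CPS1 0.55 and 1.19. The spread within sorts was larger than within runs for all 8 members (median ratio 3.37), where 72.7% of all genes were so (median ratio 1.23). GLUL, for instance, was at 7139, 7351, 7369 and 7573 in S16 to S19, which hold 4 different sorts, and at 10571, 10881 and 10140 in S21 to S23. ARG1 was at 1810, 1708, 2163 and 2009 in the former and 1073, 1017 and 1019 in the latter. What a run shares (a piglet, a day or a preparation) is not given in the sources used here.

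The liver libraries were also compared as S3 to S14 (8) and S16 to S23 (7). This split was first seen in AFP, the fetal serum protein, in these same libraries, where AFP was at 65022 to 176993 and 914 to 2034. The CD45-/EpCAM- libraries lie only in the former and CD31+ and CD146+ only in the latter, so the estimate, which has a term for the sort, rests on CD45+ (3 against 2) and CD45-/EpCAM+ (3 against 1). OTC was the only member that passed, lower in S3 to S14 at a log2 fold change of -1.18 (SE 0.30, adjusted p = 0.0367 by limma), where 3.49% of all genes passed and 2.12% were lower.

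OTC in S3, S4, S5, S8, S9, S12, S13 and S14 was at 2167, 3632, 2611, 2775, 2867, 1195, 1465 and 2604. In S16 to S19 and S21 to S23 it was at 4322, 4007, 5472, 5044, 4880, 4643 and 3992. Every library of the former lay below every library of the latter, as was so for 7.06% of all genes. The fold change was -1.28 in CD45+ libraries alone and -1.02 in CD45-/EpCAM+ alone, where S19 was the only library of S16 to S23, so that no comparison of these sorts is drawn. The call was narrow: it was lost without any of S3, S9, S12, S16, S18, S19, S21 or S23 (adjusted p from 0.0536 to 0.182), and in CD45+ libraries alone (adjusted p = 0.148).

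**Figure D4:**
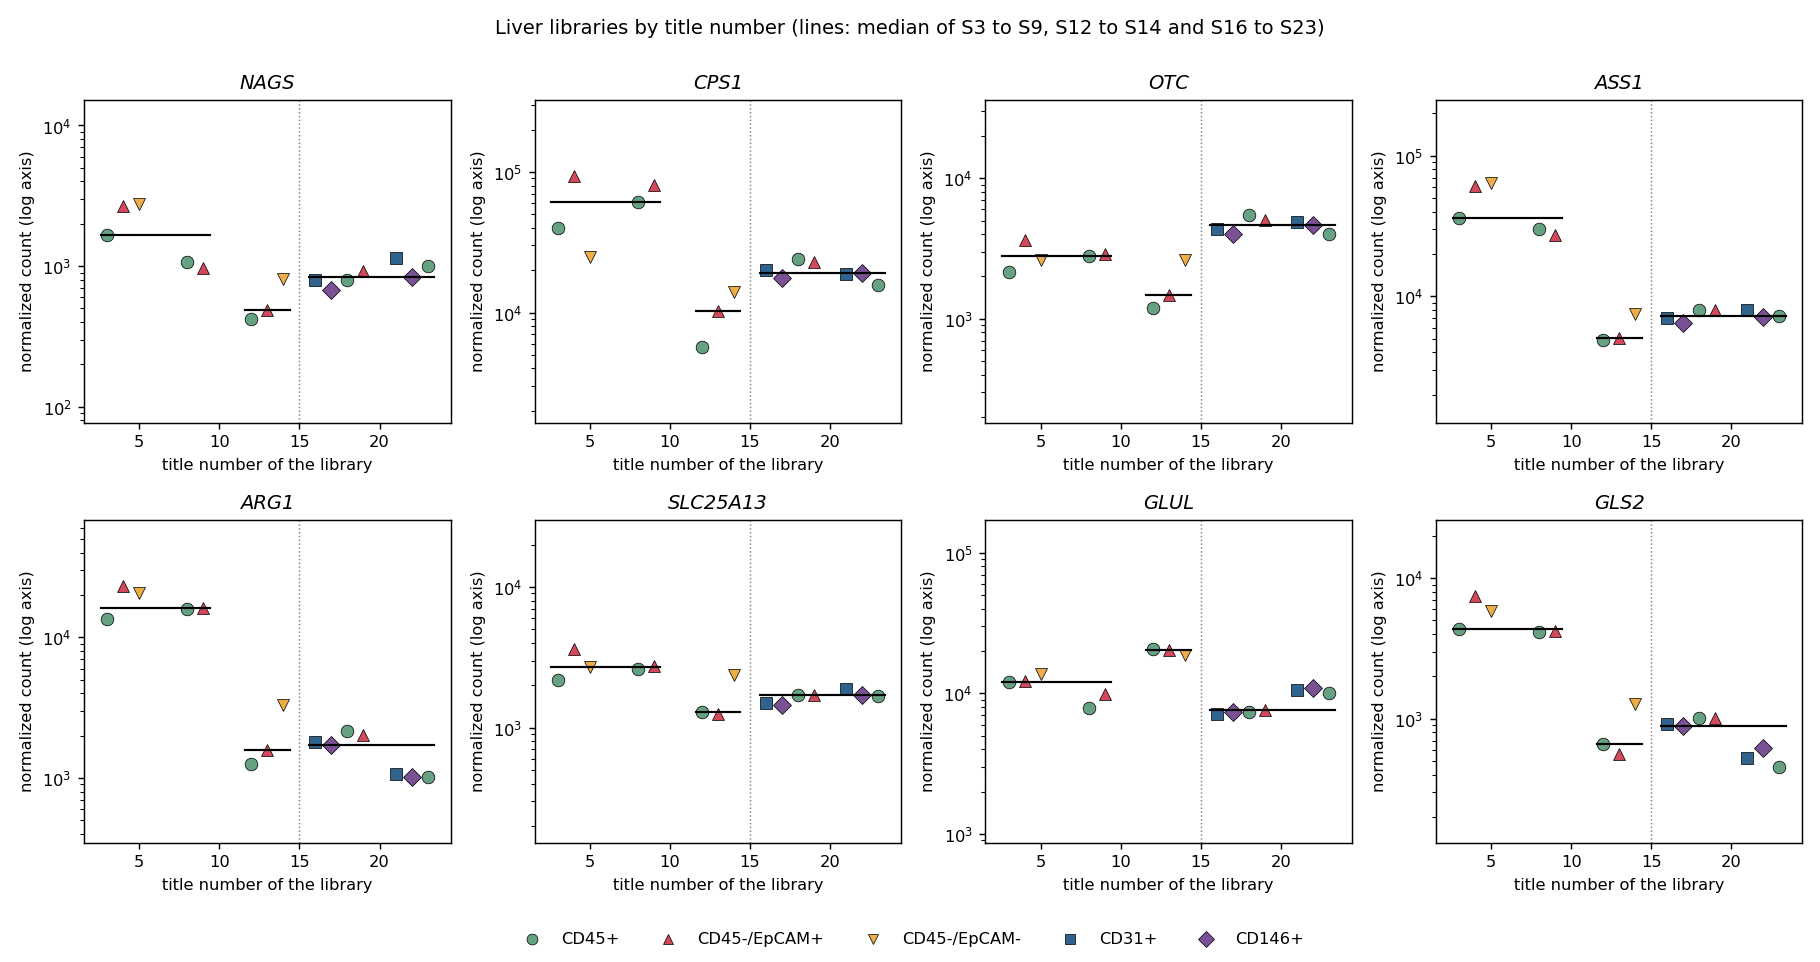
The 15 liver libraries are placed by the number in their title, with normalized counts on a log axis, a marker for each sort, lines at the medians of S3 to S9, S12 to S14 and S16 to S23, and a dotted line between both ranges. ARG1, GLS2 and ASS1 stand high in S3 to S9 and low in S12 to S14, GLUL is highest in S12 to S14, and OTC is highest in S16 to S23, with a median of 4643.

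The range S3 to S14 was not of a piece for the members. ARG1 was at 13544 to 23211 in S3 to S9, at 1268 to 3300 in S12 to S14 and at 1017 to 2163 in S16 to S23. ASS1 had medians of 35954, 5080 and 7297 in these sets, GLS2 of 4374, 662 and 883, and CPS1 of 61340, 10230 and 19088. For CPS1 the ranges were 24777 to 93371, 5701 to 14051 and 15687 to 23938, so that all 3 sets stood apart. GLUL ran the other way, from a median of 12032 in S3 to S9 up to 20270 in S12 to S14 and 7573 in S16 to S23.

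By median, CPS1, NAGS, ASS1, ARG1, GLS2 and SLC25A13 were higher in S3 to S9 than in S16 to S23. In S12 to S14 the same members were lower, from 0.536 of the S16 to S23 median for CPS1 to 0.933 for ARG1. The pooled comparison thus joined sets that differed from S16 to S23 in opposite directions for these members. OTC was lower and GLUL higher in both sets. Without S12, S13 and S14, 4 members passed, all higher in S3 to S9: ARG1 at 3.29 (adjusted p = 0.000542 by limma), GLS2 at 2.57, ASS1 at 2.20 and CPS1 at 1.58. OTC then stood at -0.82 (adjusted p = 0.00864), under the fold threshold. Without S3, S4, S5, S8 and S9, GLUL passed at 1.33 (adjusted p = 0.0194) and OTC at -1.89, and CPS1 and NAGS turned to -1.51 (adjusted p = 0.00943) and -1.02 (adjusted p = 0.0213). These divisions were made after the values had been seen.

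Other cell types moved with these sets. The summed blood cell markers (9 of 10 listed had a row) were at 64906 to 81344 in S12 to S14 against 26389 to 43334 in S3 to S9 and 19594 to 35724 in S16 to S23. The summed endothelial markers (10 of 10) were at 37512 to 72764 in S3 to S9, 121953 to 174871 in S12 to S14 and 120964 to 150360 in S16 to S23. The summed hepatocyte markers were at 1861460 to 3182840, 1213830 to 2665400 and 2271300 to 3197320 in the same order. The parts of these cell types and of the run in the members' levels were not tested. With levels taken relative to the hepatocyte markers of the same library, OTC stood at -0.88 (adjusted p = 0.0704 by limma) and no member passed. This setting shifted the median log2 fold change of all genes by 0.295. Of the 12 hepatocyte markers 2 were themselves lower in S3 to S14 and 0 higher.

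Against each range of liver libraries, pBTSCs were lower for the same 7 members. They passed against S3 to S14, where 31.5% of all genes passed and 13.2% were lower, and against S16 to S23, where 21.8% passed and 9.62% were lower. ARG1 was at -5.38 against the former and at -3.01 against the latter. OTC was at -7.98 and -8.99, and CPS1 at -8.57 and -8.05. GLUL was at -0.90 and -0.22 and passed neither, the former for its fold alone (adjusted p = 0.00111 by limma).

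Several genes next to the cycle were lower in pBTSCs too. Of 21 tested genes of ammonia, glutamate and arginine metabolism, 10 were lower and 1 higher than in CD45-/EpCAM+ liver cells, with a median log2 fold change of -1.12. There, 25.1% of all genes passed and 10.3% were lower. Against CD45+ cells 9 of the 21 were lower (9.54% of all genes), and against CD31+ and CD146+ cells 7 each (7.62% and 7.75%). AGMAT, listed as agmatinase, was at a mean of 18.5 against 2268 (log2 fold change -7.26), and CA5A, a mitochondrial carbonic anhydrase that supplies bicarbonate to CPS1, at 6.60 against 226 (-5.14). GAMT, of creatine synthesis, was at 300 against 3666 (-3.41), and GPT2, an alanine aminotransferase, at 180 against 2174 (-3.23). The gene that was higher in pBTSCs was NOS2, an inducible nitric oxide synthase that uses arginine, at 220 against 93.2 (1.88). NOS2 passed against liver libraries S3 to S14 (2.64) but not against S16 to S23 (0.43). Against CD45-/EpCAM- cells 11 of these genes were lower and 1 higher, where 36.6% of all genes passed and 16.6% were lower. The largest changes were those of AGMAT (-7.95), CA5A (-5.50), GAMT (-4.06) and ALDH4A1 (-3.25), a mitochondrial enzyme of proline breakdown.

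Of 15 tested transporters, 4 were lower and 1 higher than in CD45-/EpCAM+ cells, with a median of -0.15. Of all genes, 25.1% passed there and 10.3% were lower. SLC38A3, a glutamine carrier of hepatocytes, was at a mean of 41.1 against 4060 (-6.41) and SLC38A4 at 111 against 5279 (-5.68). SLC1A3, a glutamate carrier, was higher in pBTSCs, at 50 against 7.30 (3.13), and SLC1A4 was lower (-1.19). Against CD45-/EpCAM- cells 4 of 15 were lower and 0 higher (SLC38A3 at -6.84, SLC38A4 at -5.11, SLC3A2 at -1.77, SLC1A4 at -1.23). Of all genes, 36.6% passed there and 16.6% were lower.

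Of 16 regulators of urea cycle genes, 10 were lower and 1 higher than in CD45-/EpCAM+ cells, with a median of -1.93. In that comparison 25.1% of all genes passed and 10.3% were lower. CREB3L3, a liver transcription factor of fasting, was at a mean of 83.9 against 3199 (-5.20), GCGR, the glucagon receptor, at 28.3 against 892 (-5.10), FOXA3 at 31 against 557 (-4.73) and NR1H4, the bile acid receptor, at 57.8 against 1439 (-4.73). The regulator that was higher was TBX3 (1.74). TBX3 passed against liver libraries S3 to S14 (1.99) but not against S16 to S23 (0.60). HNF4A, a hepatocyte transcription factor, differed less, at 880 against 3831 (-2.09, SE 0.33, adjusted p = 9.32e-05 by limma). Against CD45-/EpCAM- cells 10 regulators were lower and 2 higher (TBX3 at 2.21 and GLIS3 at 1.66), where 36.6% of all genes passed and 16.6% were lower. The largest changes were those of CREB3L3 (-5.67), GCGR (-5.47), FOXA3 (-5.31) and NR1H4 (-4.38).

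**Figure D5:**
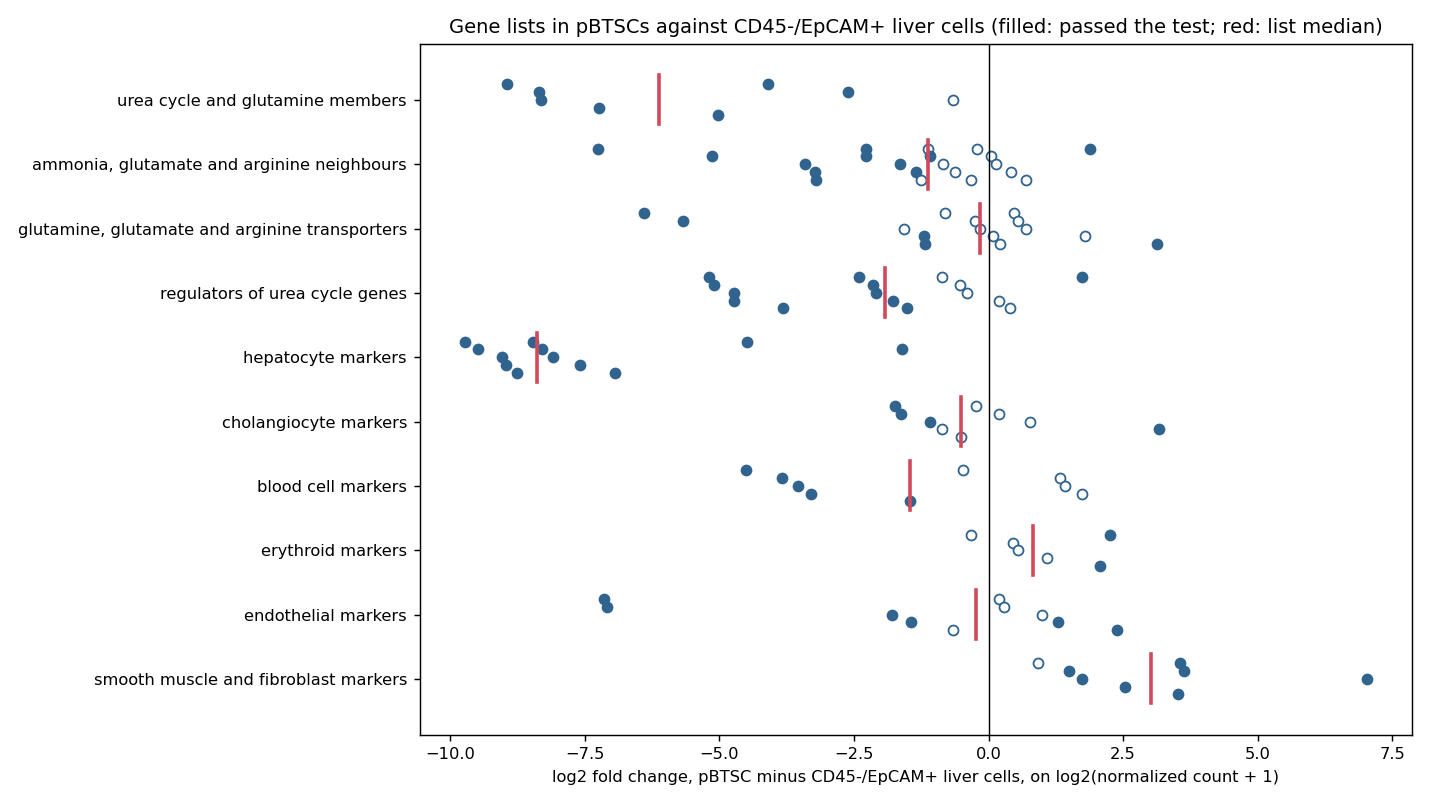
The horizontal axis is the log2 fold change of pBTSCs minus CD45-/EpCAM+ liver cells on log2(normalized count + 1); each point is 1 gene, filled where it passed the test, and red lines are list medians. The members' median of -6.12 lies between those of the hepatocyte markers (-8.38) and of the regulators (-1.93), and smooth muscle and fibroblast markers lie to the right (3.02).

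The marker lists gave the setting of these values. Against CD45-/EpCAM+ cells 25.1% of all genes passed and 10.3% were lower, and against CD45-/EpCAM- cells 36.6% and 16.6%. All 12 hepatocyte markers with a row were lower in pBTSCs than in CD45-/EpCAM+ cells (FGB -9.73, APOA2 -9.47, ALB -9.04 and TAT -8.97), and 7 of 8 smooth muscle and fibroblast markers were higher (LUM 7.04, COL1A1 3.63, DCN 3.56 and COL3A1 3.52). Of the cholangiocyte markers 1 of 9 was higher (SPP1 3.16) and 3 were lower (CLDN4 -1.74, SCTR -1.62 and CFTR -1.09). Of the blood cell markers 5 of 9 were lower and 0 higher (MARCO -4.51, CD14 -3.83, CD163 -3.53 and CD68 -3.29), of the endothelial markers 2 of 10 were higher and 4 lower (STAB2 -7.13, CLEC4G -7.08, VWF 2.39 and LYVE1 -1.80), and of the erythroid markers 2 of 6 were higher (HBB 2.25 and ALAS2 2.07). Against CD45-/EpCAM- cells all 12 hepatocyte markers were lower (APOA2 -10.58, FGB -10.00, AHSG -9.37 and TAT -9.30) and all 8 smooth muscle and fibroblast markers higher (LUM 6.86, COL3A1 4.74, COL1A1 4.40 and DCN 3.83). Of the erythroid markers 5 of 6 were lower (KLF1 -6.06, SLC4A1 -5.22, AHSP -4.93 and HBM -4.05), and of the blood cell markers 5 of 9 (MARCO -5.31, CD14 -4.54, CD163 -3.86 and CD68 -3.64). Of the cholangiocyte markers 3 of 9 were higher and 1 lower (SPP1 4.26, KRT7 1.87, CLDN4 -1.36 and ANXA4 1.33), and of the endothelial markers 4 of 10 were higher and 4 lower (CLEC4G -7.40, STAB2 -6.63, VWF 3.09 and PECAM1 2.31).

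Between the title-number ranges, 3 of the 21 metabolic genes were higher in S3 to S14 and 3 were lower. Between these ranges 3.49% of all genes passed and 2.12% were lower. ASNS, asparagine synthetase, which uses glutamine, was at a mean of 1930 against 243 (log2 fold change 2.62). The other two that were higher were PYCR1 (1.25) and GOT1 (1.04). NOS2 was at 33.8 against 184 (-2.55), GATM, of creatine synthesis, at 1684 against 10081 (-2.27) and CA5A at 157 against 492 (-1.93). Among transporters SLC7A5 (1.56) and SLC3A2 (1.23), partners in an amino acid exchanger, were higher and 0 of 15 lower, and of the 16 regulators 0 passed in limma (3 at an unadjusted p under 0.05). The hepatocyte markers CYP2E1 (-2.63) and TTR (-1.31) were lower and 5 of 6 erythroid markers higher (SLC4A1 4.90, AHSP 4.63, HBM 4.43 and HBB 3.01), while 0 of the cholangiocyte, blood cell, endothelial and smooth muscle and fibroblast markers passed in limma (2 of each at an unadjusted p under 0.05).

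The genes whose levels ran most like each member were sought among 10464 named protein-coding genes over the 17 deeper libraries. These correlations are across libraries that fall into pBTSCs and liver and share normalization, and they are given as a description. SORD and FBP1 (r = 0.989 and 0.986) were among the 3 genes closest to CPS1, and BHMT and ACSM4 (0.997 each) among the 3 closest to OTC. NAGS was most like HFE2, FTCD and F10 (0.997 each). ASS1 was most like SLC37A4, CTH and BCKDHB (0.988, 0.985 and 0.985), ARG1 like HAL, CCDC38 and ASS1 (0.981, 0.964 and 0.963), SLC25A13 like GJB1, SLC39A5 and MCFD2 (0.992, 0.989 and 0.989) and GLS2 like CTH, HGD and ALDH4A1 (0.990, 0.988 and 0.985). GLUL had the lowest values, with TESK2, STK11IP and FAM110A (0.933, 0.913 and 0.911).

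Over the 13 deeper liver libraries alone, the neighbours changed. These libraries still fall into S3 to S9, S12 to S14 and S16 to S23, between which the members' levels differed. The values of r carry these steps and are again only a description. ARG1 and GLS2 were then within each other's closest 3 genes (r = 0.995), beside HAL and HGD, enzymes of histidine and tyrosine breakdown. OTC was most like IVD, RMDN2 and NR1I2 (0.976, 0.973 and 0.964) and CPS1 like AACS, SREBF2 and SEC63 (0.969, 0.960 and 0.951). ASS1 was most like HSPA13, HPD and TFB2M (0.990, 0.987 and 0.984), NAGS like HPN, ITIH3 and CES3 (0.986, 0.986 and 0.981), SLC25A13 like MORC4, DDAH1 and SERPINA1 (0.968, 0.965 and 0.964) and GLUL like FAM110A, CCDC85C and FAM19A5 (0.960, 0.938 and 0.931).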

How the data were processed

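Poly(A) RNA (Qiagen RNeasy, Illumina TruSeq Stranded mRNA) of 20 pig libraries was sequenced. What the authors deposited is a single table: a gene name, a biotype and a normalized count per library (a signal scaled between libraries, not by gene length). The submitters' processing notes name STAR, Salmon and DESeq2; the genome build and annotation are not given in the sources used here. Without transcript lengths, sequences or a build, no sequence or coordinate is given.

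Depth was estimated from the value of 1 read, taken from the steps between low values; 3 libraries fell under 2000000 reads. Low values within 0.05 of whole reads made up 60.3% to 84.3%, so count tests were not run. 3 reads were taken as the floor, up to 4.29 normalized counts in the deeper libraries, 77.1 in S13 and 156 in S22; floors cover counting error only.

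Fits used limma 3.58.1 under R 4.3.3, with eBayes and a mean-variance trend, on log2(normalized count + 1). The 15576 genes that reached a normalized count of 10 in 2 or more libraries entered. All sorts shared 1 fit, and title ranges were fitted to the 15 liver libraries with a term for the sort. The step was also run on simulated data. Those held independent libraries with no runs of neighbouring title numbers, so they do not show how the step performs on these libraries. Single members were tested by exact permutation with scipy 1.17.1 (Python 3.11.15, numpy 2.4.6, pandas 2.3.3); figures used matplotlib 3.10.9. Fold changes on this scale understate those of low genes. The closest pair of replicates, S15 and S20, differed by 2.50 times the counting noise. Piglet line and age come from the study's list of pigs.

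The members, lists and tests were chosen with earlier results of these data known. Named are every member; of each list the 4 largest changes among genes passed against CD45-/EpCAM+ and CD45-/EpCAM- cells and between title ranges; the 3 genes most like each member with a mean of at least 100 (1 each for CPS1 and OTC is not reported here); and ALB, HNF4A and EPCAM. AFP, PTPRC, PECAM1, MCAM, TBX3, GLIS3, PYCR1, GOT1 and, against CD45-/EpCAM+ cells, NOS2 were named after their values were seen. Listed genes with no row by that name were left out. Alternatives were other pseudocounts, filters, scalings, weights and fits, and each library left out in turn.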

Additional observations from a re-analysis of the deposited data

Results flagged for a closer look

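In a check of single libraries that stand far from the rest of their sort (24 sets of 4 or 5 libraries, in which about 1.2 would stand out by chance), 1 value stood out. NAGS in the pBTSC library S20, from a wild-type piglet, was at 26.8 normalized counts, or about 56 reads, while the other 4 pBTSC libraries were between 0 and 2.58, a gap of 0.904 of the whole range. ALB was also highest in S20, at 25087. S15, the other wild-type library, has a floor of 37.7 normalized counts and could not show the level seen in S20.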

How the results depend on the processing

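Against CD45-/EpCAM+ and CD45+ liver cells 7 members passed under every alternative run. Leaving out each library in turn gave 5 to 8 members against CD45-/EpCAM- cells, 5 to 6 against CD31+ and CD146+ cells, 0 to 1 between the title ranges and 14 to 15 of 16 exact permutation tests, of which 7 of 16 had p under 0.05 without the libraries under 2000000 reads. Between the title ranges, where 1 member passed, 0 passed with no filter, no trend, CD45+ libraries alone, CD45+ and CD45-/EpCAM+ libraries alone or levels relative to hepatocyte markers; 3 passed with no term for the sort; and 4 passed with array weights, without S12, S13 and S14, or without S3, S4, S5, S8 and S9, where CPS1 (-1.51) and NAGS (-1.02) changed sign. The last 2 settings hold fewer libraries by construction; for the others the cause was not tested. ASS1 against CD146+ cells failed without the shallow libraries (adjusted p = 0.195). Over all single-member values 1649 kept their call or lack of one, 28 lost and 17 gained a call, and 2 changed sign with a call. A value without a call could change sign and still count among the 1649, as GLUL against CD31+ cells did on rescaling. Counts over all genes moved by over 1.5 times in these cases: 544 to between 64 and 2034 between title ranges, 436 to between 0 and 1489 between CD45-/EpCAM+ and CD45-/EpCAM- cells, 5698 to 3397 against CD45-/EpCAM- without S5, 2236 to between 1018 and 3804 against CD31+ and 3462 to between 1150 and 1683 against CD146+. Rescaling to 1 common total shifted the median of all genes by 0.25 to 0.47 in pBTSC comparisons and the share of higher calls from 59.0% to 72.6% (CD45-/EpCAM+), 54.7% to 75.4% (CD45-/EpCAM-), 53.6% to 66.8% (CD45+), 46.9% to 61.7% (CD31+) and 65.1% to 76.0% (CD146+). No paired analysis was possible because replicate numbers were given in accession order only and the labels tie no liver library to a piglet. A term for the run of neighbouring title numbers, chosen after seeing the data, left 7 members called against each of CD45-/EpCAM+, CD45-/EpCAM- and CD45+ cells, with GLUL lost against CD45-/EpCAM- cells. S13, S15 and S22 limit what can be seen of genes under 38 to 156 normalized counts.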
